A study of Mus musculus with 13 samples.

Results

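The TNF family analysed here comprised 47 protein-coding mouse genes: the 17 ligands, the 24 receptors and the 6 TNF receptor-associated factors, Traf1 to Traf6. They were chosen by symbol among the 35906 genes that the files cover, namely every Tnfsf and Tnfrsf gene together with Tnf, Lta, Ltb, Ltbr, Cd27, Cd70, Cd40, Cd40lg, Fas and Fasl. RNA was sequenced from mature (M2, CD69-MHCI+) CD4 single-positive (CD4SP) thymocytes of C57BL/6J mice, 8 to 12 weeks old, which carried the Lm54 TCR transgene on a Rag1-/- background, so that all T cells bear 1 receptor specific for the listeriolysin O epitope of Listeria. CtslΔTEC mice combine Foxn1-cre with Ctsl fl/fl alleles and lack cathepsin L, a lysosomal protease, in thymic epithelial cells, whereas controls, labelled Ctsl fl/fl (WT), keep it. Each library came from 1 mouse. The 9 unstimulated libraries comprised 4 controls (mice 1 to 4) and 5 CtslΔTEC mice (1 to 5). The 4 stimulated libraries, 2 controls (mice 5 and 6) and 2 CtslΔTEC mice (6 and 7), came from cells cultured for 4 h with 1 µg/ml plate-bound LLO:Iab monomer and 250 ng/ml soluble anti-CD28.

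TNF family ligands are trimeric proteins, mostly anchored in the membrane, and bind receptors with cysteine-rich extracellular domains. Receptors without a death domain recruit TRAF adaptors, which lead to the canonical and noncanonical NF-κB pathways and to JNK, whereas death domain receptors such as Fas can also engage caspase-8. On T cells, CD27, OX40 (Tnfrsf4), 4-1BB (Tnfrsf9) and GITR (Tnfrsf18) act as costimulatory receptors, and in the thymus the RANK ligand (Tnfsf11), CD40 ligand and lymphotoxins made by CD4SP cells sustain medullary thymic epithelium.

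The unstimulated libraries held 25692380 to 39127833 estimated counts, and the stimulated ones 8085463 (control mouse 5) to 27184520 (control mouse 6). Stimulated and unstimulated cells also differed in culture and in the date in the file names, so that these cannot be told apart. The cells held the transcripts of CD4 T cells: the summed level of Cd4, Cd3e, Cd3d, Cd5 and Lck was 2799 to 3891 TPM in all 13 libraries. Of the other cell types looked for, 6 B cell markers summed to at most 2.85 TPM, 7 thymic epithelial markers to 1.68 to 11.8 TPM, mostly Epcam, with Krt14 at 0, and 5 markers of NK and innate lymphoid cells to 0.199 to 6.71 TPM, mostly Gzma, with Ncr1 at 0. The 4 red cell markers, mostly the globins Hbb-bs and Hba-a1, summed to 98.3 to 471 TPM in unstimulated cells, where the genotypes overlapped, and to 6.30 to 41.0 TPM in stimulated ones, and the 4 endothelial and stromal ones, nearly all of it Pecam1, to 18.1 to 115 TPM. Ctsl was at 5.41 to 9.03 TPM in unstimulated control cells and at 10.7 to 16.5 TPM in CtslΔTEC cells. The deletion lies in the epithelium, so that Ctsl in thymocytes does not check it. Ddx3y, a Y-linked gene, was above 1 TPM in all 5 unstimulated CtslΔTEC mice but in 1 of 4 controls (mouse 3) and in 1 of 2 stimulated mice of each genotype (control 6 and CtslΔTEC 7). In bulk RNA, fewer cells with a transcript and less of it per cell cannot be told apart.

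Of the 47 genes, 39 were abundant enough for a test over all 13 libraries and 37 in the unstimulated libraries alone. The other 8 had at most 4 estimated counts in any library. Cd70, Tnfsf13 (APRIL), Tnfrsf11b (osteoprotegerin) and Tnfrsf17 (BCMA) had 0 in every library, which allows up to 0.077 to 0.372 CPM (counts scaled to library size) depending on depth, whereas Tnfsf12 (TWEAK), Tnfsf15, Tnfsf18 (GITR ligand) and Ltbr, the lymphotoxin β receptor, had between 1 and 4 at their highest. Before stimulation, the family was dominated by Ltb (618 to 879 TPM, a unit scaled to transcript length and library size) and Cd27 (403 to 579 TPM). Cd40lg (90.9 to 155 TPM), Tnfrsf14 (73.3 to 126 TPM), Traf1 (71.6 to 105 TPM), Tnfrsf1a (52.3 to 74.5 TPM) and Tnfrsf25 (37.7 to 73.1 TPM) came next and overlapped in part, so that their order is not fixed by these libraries. Exons of Tnfsf9, Tnfrsf18, Tnfrsf23, Tnfrsf26 and Traf5 overlap exons of noncoding genes or gene models on the opposite strand, and since strand was not used in the quantification, reads of both cannot be told apart there. The members together took 1987 ± 106.4 TPM (SD, n = 4) in control and 2113 ± 96.8 TPM (n = 5) in CtslΔTEC cells, and 4286 ± 743 TPM (n = 2) and 4615 ± 22.9 TPM (n = 2) after stimulation.

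**Figure D1:**
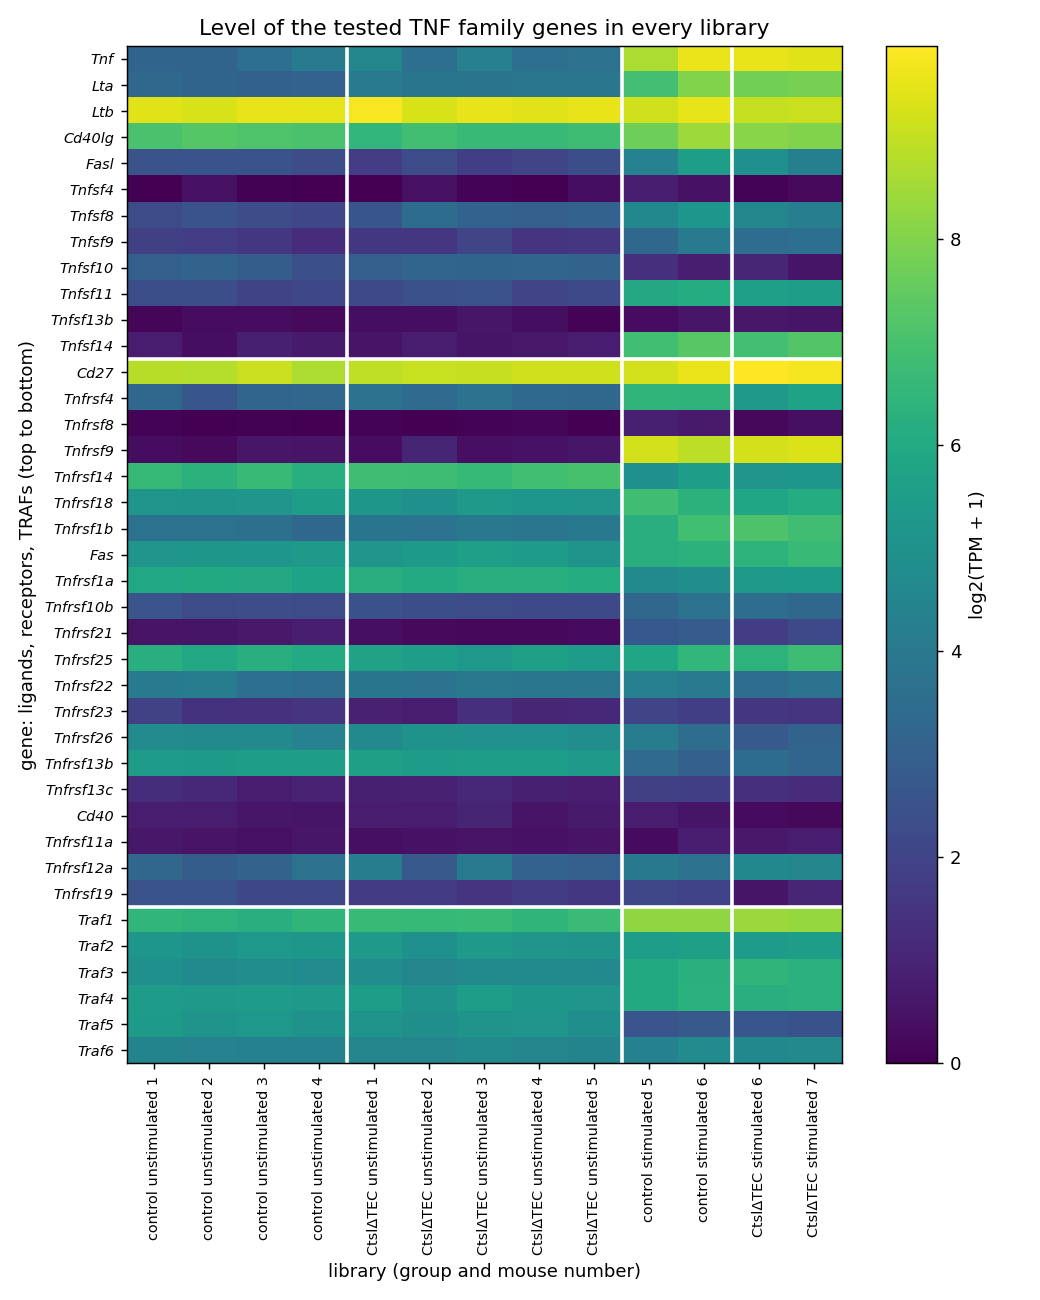
Level of the 39 tested TNF family genes (rows, ordered as ligands, receptors and TRAFs) in the 13 libraries (columns, by group and mouse number). Colour gives log2(TPM + 1). Ltb and Cd27 were high in every library, while Tnfrsf9, Tnfsf14 and Tnf were bright only in the 4 stimulated columns.

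Stimulation asks how mature CD4SP cells answer their antigen, and most of the family moved. Among the 39 members tested, 24 rose and 7 fell in control cells, and 27 rose and 10 fell in CtslΔTEC cells (edgeR's quasi-likelihood test, adjusted p under 0.1). The background was large: 32.9% of all 14241 genes tested rose and 34.8% fell in control cells (67.7% changed), and 32.9% rose and 38.2% fell in CtslΔTEC cells (71.2% changed). The median log2 fold change of the members was 1.07 in control and 1.20 in CtslΔTEC cells, beside 0.01 and -0.06 for all genes. In both genotypes 23 members rose and 7 fell, beside 28% and 31.9% of all genes, none moved in opposite directions among those called in both, 7 passed the threshold in CtslΔTEC cells alone (Tnfrsf11a, Tnfrsf12a, Tnfrsf23 and Tnfrsf25 rose, and Cd40, Ltb and Tnfrsf22 fell) and Tnfsf13b (BAFF) rose in control cells alone. Of these 8, only Tnfrsf25 passed the test of a difference between the responses, given further on. The calls of Tnfrsf11a, Tnfrsf22, Tnfrsf23 and Ltb were lost without CtslΔTEC mouse 6 (0.78, -0.31, 0.43 and -0.29), and that of Tnfsf13b without control mouse 6 (0.43, against 1.02 with all libraries). Of the 13 libraries left out in turn, the Tnfrsf11a call was lost without 2 (both stimulated CtslΔTEC mice), that of Tnfrsf22 without 6 (these and CtslΔTEC mice 2 to 5) and that of Tnfsf13b without 9 (all but control mice 3 and 5 and CtslΔTEC mice 1 and 5). That of Tnfrsf23 was lost without 11 (all but control mouse 4 and CtslΔTEC mouse 3). Under other settings the call of Tnfsf13b was lost in 6 of 7, that of Tnfrsf23 in 5 of 8, that of Tnfrsf22 in 4 of 8 and that of Ltb in 2 of 8. Only Tnfsf4, the OX40 ligand, with at most 16 estimated counts, passed in neither.

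Tnfrsf9, the receptor 4-1BB, showed the largest rise among the members. It was at 0.269, 0.185, 0.502 and 0.424 TPM in unstimulated control mice 1 to 4, at 0.261, 1.03, 0.331, 0.399 and 0.501 TPM in CtslΔTEC mice 1 to 5, and after stimulation at 594 and 479 TPM in control mice 5 and 6 and 608 and 657 TPM in CtslΔTEC mice 6 and 7. The log2 fold change was 10.91 ± 0.29 (SE) in control (edgeR adjusted p = 1.12e-12) and 10.36 ± 0.25 in CtslΔTEC cells (edgeR adjusted p = 1.6e-13). With 7 to 39 estimated counts before stimulation, the size of this fold rests on few reads at its lower end. Its gene (chr4:150914562-150946102, GRCm38) holds exons of Camta1 on the opposite strand between its own. Tnfrsf9 moved from among the least abundant tested members to the range of Ltb and Cd27.

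Tnfsf14, the ligand LIGHT, was at 0.709, 0.279, 0.832 and 0.656 TPM in control mice 1 to 4, 0.443, 0.681, 0.463, 0.612 and 0.679 TPM in CtslΔTEC mice 1 to 5 and 116 and 157 TPM in control mice 5 and 6 and 119.8 and 148 TPM in CtslΔTEC mice 6 and 7. It rose by a log2 fold change of 7.89 ± 0.22 in control (edgeR adjusted p = 1.35e-12) and 8.0 ± 0.20 in CtslΔTEC cells (edgeR adjusted p = 1.75e-13). Tnf, the founding cytokine of the family, stood at 8.0, 8.07, 11.2 and 16.1 TPM in control mice 1 to 4, at 22.4, 11.0, 18.9, 11.3 and 12.0 TPM in CtslΔTEC mice 1 to 5, and at 405 and 771 TPM in control mice 5 and 6 and 745 and 687 TPM in CtslΔTEC mice 6 and 7 after stimulation. Among the unstimulated libraries Tnf differed by the date in the file names: the 3 libraries of the first date (CtslΔTEC mice 1 and 3 and control mouse 4) lay at 16.1 to 22.4 TPM and the 6 of the second at 8.0 to 12.0 TPM. Within the first date both CtslΔTEC mice lay above the control, and within the second the ranges of the genotypes overlapped. Tnfrsf12a, the TWEAK receptor Fn14, was the other of 2 members out of 37 whose dates did not overlap (12.0 to 16.9 against 5.71 to 8.53 TPM), beside 6.67% of all genes. In CtslΔTEC mice Tnfrsf12a was at 16.9 and 16.3 TPM on the first date, 5.71 to 7.59 TPM on the second, and 23.6 and 21.7 TPM after stimulation. Its called rise in CtslΔTEC cells is thus smaller against the first date than against the second. Lta, lymphotoxin α, was at 121 and 254 TPM in control mice 5 and 6 and 216 and 231 TPM in CtslΔTEC mice 6 and 7, 21.2-fold above unstimulated cells by the mean log2 fold change of both genotypes.

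The 250 bases before the annotated start are printed for Tnfrsf9, Tnfsf14 and Tnf, the members with the largest rises, and for Ltb, the neighbour of Tnf that did not rise. They are RefSeq sequences of GRCm38.p6, read 5′ to 3′ on the strand of the gene. Tnfrsf9 lies at chr4:150927749-150927998 (+ strand, the one of its 2 listed starts with more motif matches), Tnfsf14 at chr17:57194182-57194431 (- strand), Tnf at chr17:35202008-35202257 (- strand) and Ltb at chr17:35194257-35194506 (+ strand). Capitals mark a κB-type motif (GGG, any 2 bases, TTTCC), an AP-1-type motif (TGANTCA) or an NFAT core (TGGAAA), each searched on both strands, and no 2 marked motifs overlap.
Tnfrsf9: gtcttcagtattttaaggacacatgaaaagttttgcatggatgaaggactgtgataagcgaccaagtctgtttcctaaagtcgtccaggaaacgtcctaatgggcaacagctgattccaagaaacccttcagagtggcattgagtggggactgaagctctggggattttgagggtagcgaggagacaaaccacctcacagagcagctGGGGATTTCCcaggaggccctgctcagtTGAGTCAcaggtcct
Tnfsf14: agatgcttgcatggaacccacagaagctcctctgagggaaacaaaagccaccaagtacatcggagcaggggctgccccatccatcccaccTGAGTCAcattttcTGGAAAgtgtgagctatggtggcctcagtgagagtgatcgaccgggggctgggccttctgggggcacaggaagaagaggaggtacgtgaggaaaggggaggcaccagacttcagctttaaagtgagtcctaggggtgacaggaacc
Tnf: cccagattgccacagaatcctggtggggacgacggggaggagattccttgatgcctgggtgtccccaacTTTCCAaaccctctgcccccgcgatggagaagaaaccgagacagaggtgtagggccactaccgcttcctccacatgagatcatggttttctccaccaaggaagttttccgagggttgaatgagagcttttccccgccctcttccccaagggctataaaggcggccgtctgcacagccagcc
Ltb: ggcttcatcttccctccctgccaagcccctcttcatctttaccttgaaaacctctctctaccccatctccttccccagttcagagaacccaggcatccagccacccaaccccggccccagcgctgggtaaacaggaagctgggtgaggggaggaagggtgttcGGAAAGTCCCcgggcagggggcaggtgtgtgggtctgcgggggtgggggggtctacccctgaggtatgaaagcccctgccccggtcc

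The marked Tnfrsf9 window holds a κB-type motif that begins 43 bases and an AP-1-type motif that begins 15 bases before the start, and the Tnfsf14 window an AP-1-type motif and an NFAT core at 160 and 146 bases. The Ltb window holds a κB-type motif at 87 bases, and the Tnf window an NFAT core at 181 bases. The table of promoters held 37 of the 47 members. The κB-type letters occurred in 4 of them (Ltb, Tnfrsf25, Tnfrsf9 and Traf3) and in 1.65% of all 27025 genes listed, the AP-1-type letters in 6 and in 7.82%, and the NFAT core in 8 and in 20.9%. The NFAT core counted for Tnfrsf9 lies in the window of its other listed start. The printed Tnfrsf9 window was chosen for its matches and lies within the span of the gene, so that finding matches there is no result. Such matches describe letters and do not show binding.

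**Figure D2:**
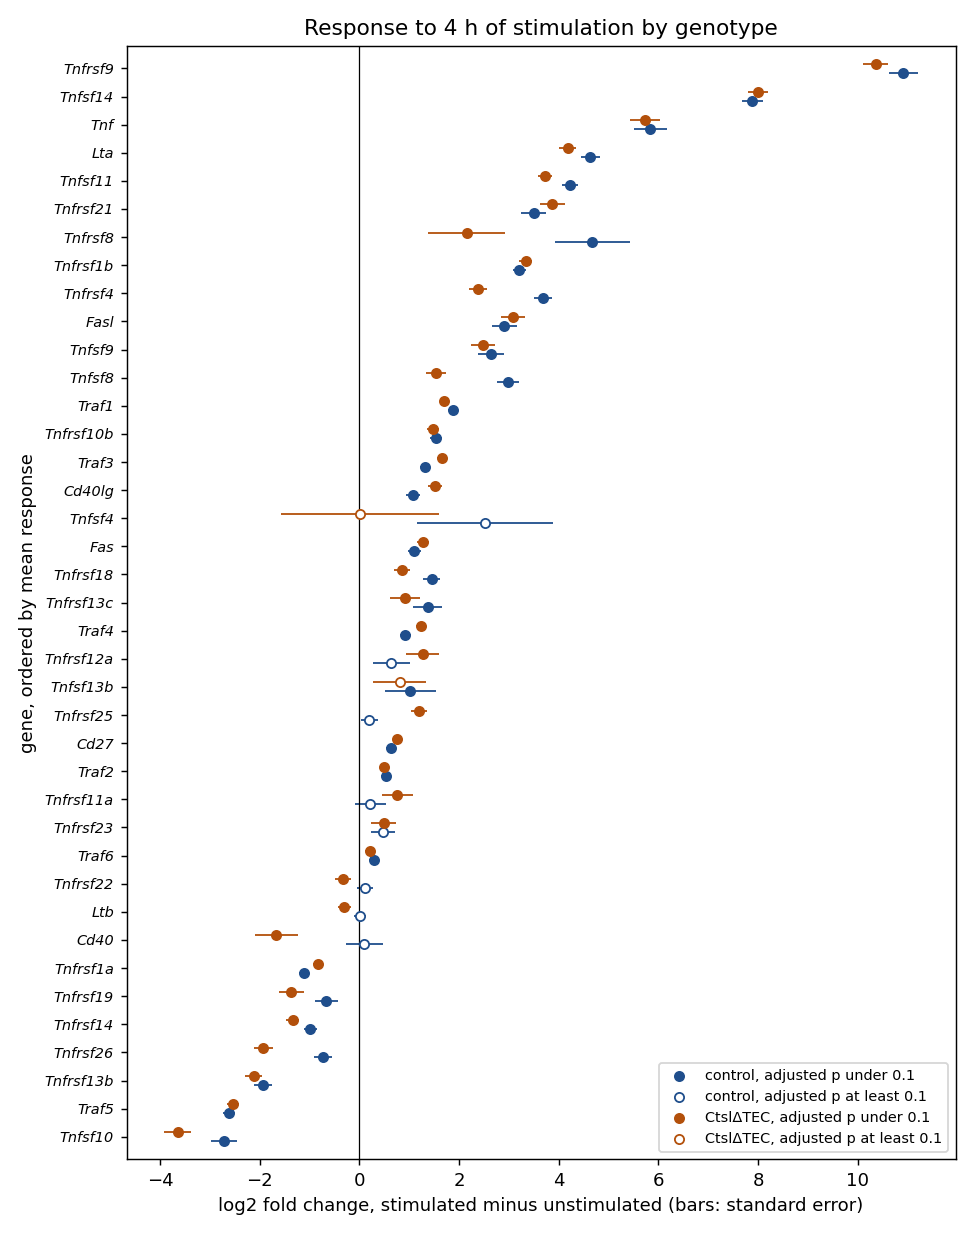
Log2 fold change (x axis, stimulated minus unstimulated) of the 39 tested members (y axis, ordered by the mean of both genotypes) in control (blue) and CtslΔTEC (orange) cells. Bars are standard errors and filled points passed adjusted p 0.1. By the mean of both genotypes, Tnfrsf9, Tnfsf14, Tnf and Lta lie farthest to the right, and Tnfsf10 and Traf5 farthest to the left. The control point of Tnfrsf8 (4.68) lies beyond that of Lta (4.64).

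Other ligands rose as well. Tnfsf11, the RANK ligand, was at 4.19, 4.24, 3.03 and 3.39 TPM in control mice 1 to 4, 3.48, 4.51, 4.77, 3.14 and 3.52 TPM in CtslΔTEC mice 1 to 5 and 60.4 and 68.4 TPM in control mice 5 and 6 and 47.0 and 44.9 TPM in CtslΔTEC mice 6 and 7 after stimulation, with a log2 fold change of 4.22 ± 0.16 in control (edgeR adjusted p = 1.59e-11) and 3.73 ± 0.14 in CtslΔTEC cells (edgeR adjusted p = 1.41e-11). All 4 stimulated libraries lay above all 9 unstimulated ones. Fasl, which triggers Fas-mediated death, rose (2.5 to 4.91 TPM before and 18.1 to 44.9 TPM after stimulation), and Tnfsf9, the ligand of 4-1BB,(1.38 to 3.24 TPM before and 8.71 to 15.4 TPM after stimulation). Cd40lg, which licenses B cells and dendritic cells, rose (90.9 to 155 TPM before and 205 to 344 TPM after stimulation). Tnfsf10 (TRAIL, a ligand of death receptors) fell from 6.93, 7.73, 6.51 and 4.33 TPM in control mice 1 to 4 and 6.86, 8.26, 8.12, 8.32 and 7.95 TPM in CtslΔTEC mice 1 to 5 to 1.48 and 0.782 TPM in control mice 5 and 6 and 1.11 and 0.464 TPM in CtslΔTEC mice 6 and 7. Its log2 fold change was -2.71 ± 0.25 in control (edgeR adjusted p = 2.36e-07) and -3.64 ± 0.27 in CtslΔTEC cells (edgeR adjusted p = 1.21e-08). Ltb, which pairs with lymphotoxin α on the membrane, stayed in the range of 513 to 879 TPM in all 13 libraries, with a log2 fold change of 0.01 ± 0.13 in control cells (edgeR adjusted p = 0.938) and -0.30 ± 0.13 in CtslΔTEC cells (edgeR adjusted p = 0.0463). The latter call was lost under 2 of 8 other settings.

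Among the 7 tested costimulatory receptors, 6 rose and Tnfrsf14 fell in both genotypes, as did 28% and 31.9% of all genes. Tnfrsf1b, the TNF receptor TNFR2, was at 8.9 to 15.0 TPM before and rose to 73.7 and 117 TPM in control mice 5 and 6 and 137 and 113 TPM in CtslΔTEC mice 6 and 7, a log2 fold change of 3.21 ± 0.14 in control (edgeR adjusted p = 5.9e-11) and 3.33 ± 0.13 in CtslΔTEC cells (edgeR adjusted p = 1.18e-11). Tnfrsf8 (CD30) is named by the size of its change but was scarce: it was at 0.061, 0.0147, 0.0307 and 0.0116 TPM in control mice 1 to 4, 0.0641, 0, 0.0815, 0.127 and 0.0219 TPM in CtslΔTEC mice 1 to 5 and 0.846 and 0.639 TPM in control mice 5 and 6 and 0.144 and 0.31 TPM in CtslΔTEC mice 6 and 7 after stimulation, with at most 41 estimated counts. Its rise of 4.68 ± 0.76 in control (edgeR adjusted p = 6.92e-05) and 2.15 ± 0.77 in CtslΔTEC cells (edgeR adjusted p = 0.0235) has wide errors, and without CtslΔTEC mouse 7 the latter was 1.38 and not called. Tnfrsf8 had 0 to 10 estimated counts before stimulation and entered the test only through the stimulated libraries, so that the filter favoured a rise. Cd27 rose (403 to 579 TPM before and 587 to 938 TPM after stimulation). Tnfrsf14 (HVEM), the receptor of LIGHT, was at 96.2, 80.5, 102 and 73.3 TPM in control mice 1 to 4 and 114, 112, 97.7, 117 and 126 TPM in CtslΔTEC mice 1 to 5, and fell to 30.5 and 45.3 TPM in control mice 5 and 6 and 34.6 and 35.2 TPM in CtslΔTEC mice 6 and 7. Its log2 fold change was -0.98 ± 0.14 in control (edgeR adjusted p = 1.71e-05) and -1.34 ± 0.14 in CtslΔTEC cells (edgeR adjusted p = 4.58e-07).

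The receptors with a death domain split. Fas rose (33.4 to 46.8 TPM before and 75.0 to 100.2 TPM after stimulation) and Tnfrsf10b, the mouse TRAIL receptor,(3.56 to 5.06 TPM before and 8.66 to 11.9 TPM after stimulation), whereas Tnfrsf1a (TNFR1), through which TNF can kill or activate cells, fell (52.3 to 74.5 TPM before and 24.6 to 40.2 TPM after stimulation). The Tnfrsf1a log2 fold change was -1.11 ± 0.10 in control (edgeR adjusted p = 1.44e-07) and -0.83 ± 0.09 in CtslΔTEC cells (edgeR adjusted p = 1.59e-06), so that the 2 TNF receptors moved in opposite directions. Tnfrsf21, the death receptor DR6, rose by 3.49 ± 0.25 in control (edgeR adjusted p = 1.07e-08) and 3.88 ± 0.25 in CtslΔTEC cells (edgeR adjusted p = 2.63e-09). Tnfrsf13b (TACI, a receptor for BAFF and APRIL best known from B cells) was at 42.8, 40.6, 45.5 and 44.2 TPM in control mice 1 to 4, at 48.5, 42.1, 43.6, 45.2 and 38.3 TPM in CtslΔTEC mice 1 to 5, and at 10.0 and 7.12 TPM in control mice 5 and 6 and 10.1 and 8.33 TPM in CtslΔTEC mice 6 and 7 after stimulation. This was a log2 fold change of -1.93 ± 0.17 in control (edgeR adjusted p = 1.54e-07) and -2.12 ± 0.17 in CtslΔTEC cells (edgeR adjusted p = 3.63e-08). Of the 6 B cell markers, Cr2 reached 1.25 TPM, Cd79b 1.10, Cd79a 0.840, Fcer2a 0.675, Ms4a1 0.145 and Pax5 0.0062 TPM in any library.

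Read as ligand and receptor pairs, the measured sides did not always move together. Tnfsf9 and Tnfrsf9 rose together in both genotypes, as did Fasl and Fas. Tnfsf8 and Tnfrsf8 were also called higher in both, the latter from few counts and favoured by the filter, as given before. For LIGHT and HVEM the ligand rose while the receptor fell, and for TRAIL and its receptor Tnfrsf10b the ligand fell while the receptor rose. Tnfrsf4 and Tnfrsf18 rose while their ligands Tnfsf4 and Tnfsf18 stayed at or below 0.759 and 0.0289 TPM, and Tnfsf11 rose while its receptor Tnfrsf11a did not exceed 0.703 TPM in any library.

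Of the 6 TRAFs, 5 rose and Traf5 fell in both genotypes, to be read against the same shares of all genes. The call of Traf6 was lost in control cells without control mouse 6 (0.18) and in CtslΔTEC cells without CtslΔTEC mouse 6 (0.21) or 7 (0.17), with upper-quartile factors (0.16), with library totals (0.06) and with no filter on low counts (0.15). Traf1, which is itself a known NF-κB target, rose (71.6 to 105 TPM before and 299 to 332 TPM after stimulation), with a log2 fold change of 1.88 ± 0.10 in control (edgeR adjusted p = 3.38e-10) and 1.70 ± 0.09 in CtslΔTEC cells (edgeR adjusted p = 3.37e-10). Traf3, which restrains the noncanonical NF-κB kinase NIK, rose (21.8 to 29.8 TPM before and 62.5 to 87.7 TPM after stimulation), and Traf4(31.6 to 45.5 TPM before and 62.7 to 79.2 TPM after stimulation). The rises of Traf2 (0.54 and 0.50 on the log2 scale) and Traf6 (0.29 and 0.21) were the smallest of the 5. Traf5 was at 28.8 to 40.7 TPM before and at 5.09 and 5.7 TPM in control mice 5 and 6 and 5.17 and 4.68 TPM in CtslΔTEC mice 6 and 7 after stimulation. Its log2 fold change was -2.62 ± 0.12 in control (edgeR adjusted p = 8.07e-11) and -2.53 ± 0.11 in CtslΔTEC cells (edgeR adjusted p = 6.01e-11). With all libraries no TRAF passed the threshold between genotypes after stimulation or in the interaction, but without control mouse 6 Traf3 passed both (0.36, edgeR adjusted p = 0.0702, and 0.55, edgeR adjusted p = 0.0326).

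Transcript models behind 3 of these genes also changed weight. The shares are kallisto estimates within a gene, given as description. Traf1-202 (2325 bases) made up 46.1 to 56.9% of Traf1 TPM in the 9 unstimulated libraries and 23.0 to 25.0% in the 4 stimulated ones, while Traf1-201 (2069 bases) lay at 0 to 6.93% before and 11.5 to 23.1% after. Within Tnfrsf25, the receptor DR3, Tnfrsf25-202 lay at 31.8 to 40.9% before and 12.4 to 16.2% after stimulation, and Tnfrsf25-201 at 17.9 to 28.0% before and 34.5 to 43.4% after. Traf5 rested on a short model, Traf5-205 (414 bases), for 78.4 to 82.0% of its TPM before and 50.1 to 66.1% after stimulation, so that its TPM is not comparable with that of the other TRAFs. The retained-intron model Traf5-203 lay at 5.81 to 10.7% before and 33.9 to 44.3% after, while its level was 2.16 to 3.13 TPM before and 1.73 to 2.40 TPM after. For these 6 models, unstimulated and stimulated shares did not overlap. Those of Tnfrsf25-204 did, at 29.6 to 38.4% before and 38.0 to 45.6% after. How many of all transcript models show no overlap was not counted.

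**Figure D3:**
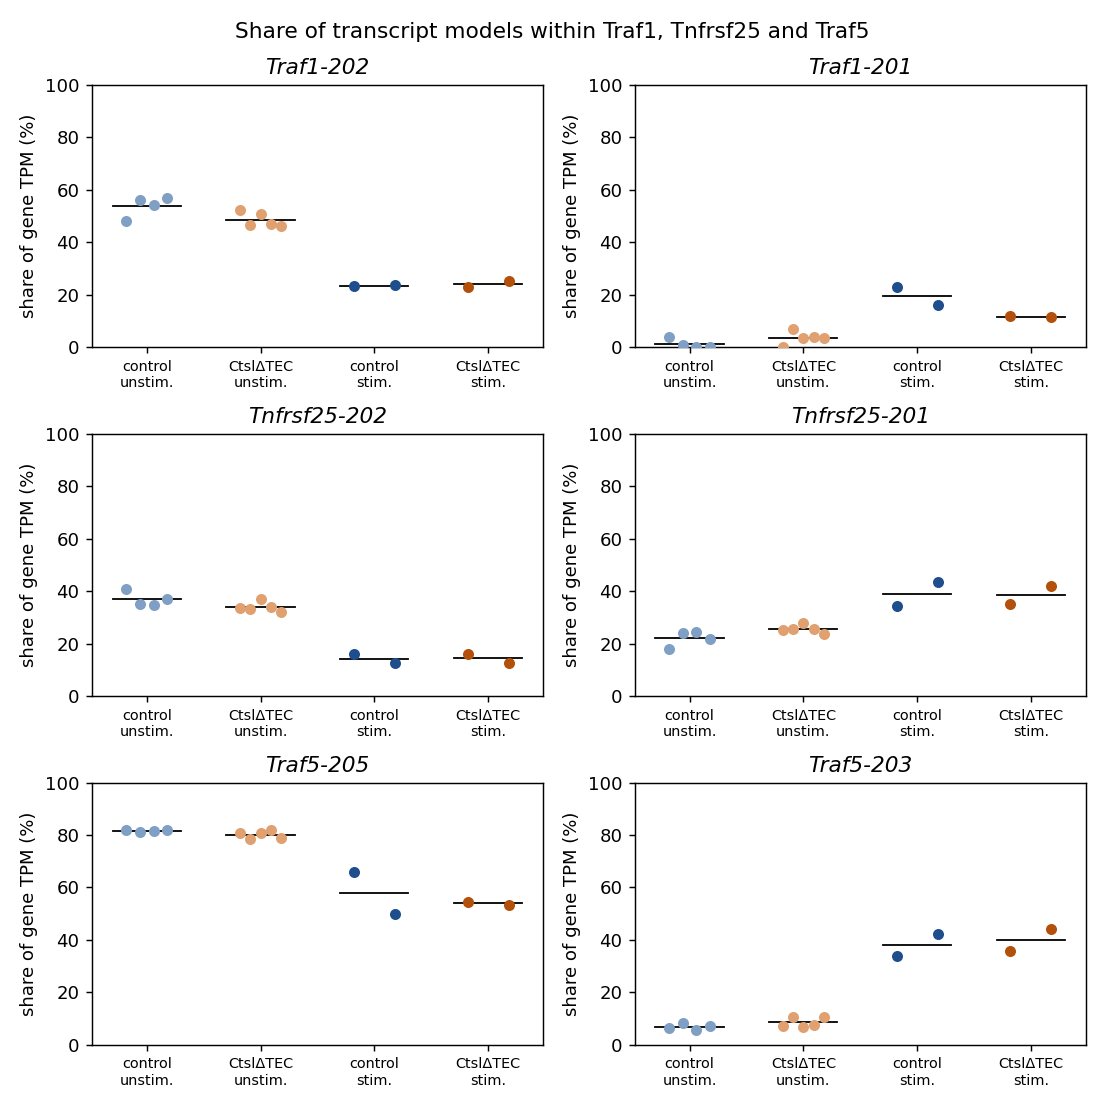
Share of gene TPM (%, y axis, 0 to 100) of 6 transcript models of Traf1, Tnfrsf25 and Traf5 in each library (points) of the 4 groups (x axis), with the group mean as a line. Traf1-202, Tnfrsf25-202 and Traf5-205 lie lower and their partner models higher in stimulated than in unstimulated libraries.

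The genotype comparison in unstimulated cells asks whether selection on epithelium without cathepsin L leaves a mark on these genes. Of 37 members tested, 3 were higher in CtslΔTEC cells and 8 lower, beside 6.42% and 8.36% of all 13152 genes (14.8% in either direction). With library totals or with upper-quartile factors in place of TMM, 7 members were higher and 6 lower. DESeq2 called 7 higher and 8 lower, a minimum of 10 counts in every library 7 and 8, and protein-coding genes alone 6 and 7. With the date in the file names as a factor, 8 were higher and 8 lower, all 11 among them, with 2710 of all genes called, so that the balance of directions was not fixed across settings. The median log2 fold change of the members was 0.02, beside 0.01 for all genes. Lta, Tnfsf8 and Tnfrsf1a were higher. Cd40lg, Fasl, Tnfrsf19, Tnfrsf21, Tnfrsf23, Tnfrsf25, Traf3 and Traf5 were lower. On the log2 CPM scale all 11 had genotypes without overlap, as did Tnfrsf1b, giving 12 of 37 members beside 13.7% of all genes.

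Among the ligands, Lta was at 8.97, 8.15, 7.35 and 7.66 TPM in control mice 1 to 4 and at 15.3, 13.5, 12.9, 13.7 and 13.6 TPM in CtslΔTEC mice 1 to 5. Every CtslΔTEC library lay above every control, with a log2 fold change of 0.74 ± 0.10 (edgeR adjusted p = 0.000687). Tnfsf8 was at 3.94, 4.83, 4.02 and 3.32 TPM in control mice 1 to 4 and at 5.31, 10.1, 7.59, 7.04 and 7.63 TPM in CtslΔTEC mice 1 to 5. This ligand of CD30 was higher by 0.86 ± 0.18 (edgeR adjusted p = 0.00911). Cd40lg was at 132, 155, 142 and 129 TPM in control mice 1 to 4 and at 90.9, 116, 102, 100.2 and 111 TPM in CtslΔTEC mice 1 to 5. Cd40lg was lower in all 5 CtslΔTEC libraries, with a log2 fold change of -0.46 ± 0.09 (edgeR adjusted p = 0.00667). Fasl was at 4.69, 4.91, 4.89 and 4.06 TPM in control mice 1 to 4 and at 2.5, 3.84, 2.56, 3.18 and 4.12 TPM in CtslΔTEC mice 1 to 5. It was lower, with a log2 fold change of -0.61 ± 0.16 (edgeR adjusted p = 0.0343), although on the TPM scale CtslΔTEC mouse 5 (4.12 TPM) lay above control mouse 4 (4.06 TPM).

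Among the receptors, Tnfrsf25 was at 71.9, 59.7, 73.1 and 65.3 TPM in control mice 1 to 4 and at 50.6, 45.5, 37.7, 48.4 and 42.1 TPM in CtslΔTEC mice 1 to 5. DR3, a costimulatory receptor with a death domain, was lower, with a log2 fold change of -0.59 ± 0.09 (edgeR adjusted p = 0.0019). Tnfrsf19 was at 4.88, 4.71, 3.39 and 3.36 TPM in control mice 1 to 4 and at 2.27, 2.33, 1.8, 2.36 and 2.04 TPM in CtslΔTEC mice 1 to 5. TROY, an orphan receptor known mainly from epithelium and the nervous system, was lower, with a log2 fold change of -1.04 ± 0.16 (edgeR adjusted p = 0.00165). Tnfrsf21 was at 0.423, 0.481, 0.591 and 0.757 TPM in control mice 1 to 4 and at 0.318, 0.198, 0.168, 0.155 and 0.215 TPM in CtslΔTEC mice 1 to 5. DR6 was lower, with a log2 fold change of -1.41 ± 0.26 (edgeR adjusted p = 0.00435), at 11 to 67 estimated counts. Tnfrsf23 was at 2.88, 1.71, 1.64 and 1.88 TPM in control mice 1 to 4 and at 0.886, 0.718, 1.62, 1.08 and 1.18 TPM in CtslΔTEC mice 1 to 5. This TRAIL decoy receptor was lower, with a log2 fold change of -0.67 ± 0.19 (edgeR adjusted p = 0.0423). Without control mouse 1 its log2 fold change was -0.55 and without control mouse 2 it was -0.60, neither of them called.

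The remaining 3 calls were small. Tnfrsf1a was at 60.2, 62.2, 61.2 and 52.3 TPM in control mice 1 to 4 and at 73.6, 64.2, 74.2, 74.5 and 68.9 TPM in CtslΔTEC mice 1 to 5. The log2 fold change was 0.22 ± 0.06 (edgeR adjusted p = 0.0511), and 5 of the 9 libraries (control mice 1 and 4 and CtslΔTEC mice 3, 4 and 5) ended the call when left out, with values of 0.18 to 0.22. Traf3 was at 29.8, 25.0, 28.2 and 26.5 TPM in control and 28.4, 21.8, 25.5, 25.4 and 25.1 TPM in CtslΔTEC cells, ranges that overlap on the TPM scale, and was lower, with a log2 fold change of -0.19 ± 0.06 (edgeR adjusted p = 0.0928). That call was lost without any library but CtslΔTEC mouse 1, at -0.15 to -0.20. Traf5 was at 40.7, 33.4, 37.2 and 32.7 TPM in control and 33.3, 28.8, 33.2, 34.9 and 29.1 TPM in CtslΔTEC cells, ranges that overlap as well, and was lower, with a log2 fold change of -0.22 ± 0.07 (edgeR adjusted p = 0.0775), a call lost without control mouse 1, 2 or 3 or CtslΔTEC mouse 2, 3 or 5, at -0.18 to -0.24. The other 7 members (Lta, Tnfsf8, Cd40lg, Fasl, Tnfrsf19, Tnfrsf21 and Tnfrsf25) were called with each of the 9 libraries left out in turn. Under 12 other settings the call of Traf3 was lost in 9, that of Traf5 in 5 and that of Tnfrsf1a in 4, and Fasl was not called in the model of 4 groups over 13 libraries (-0.60, edgeR adjusted p = 0.106). Among the fits with 1 library left out, the lowest count of calls was 7, without control mouse 1.

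An exact permutation test, two-sided and over all 126 ways to divide the 9 libraries, gave Lta, Tnfrsf19, Tnfrsf1b, Tnfrsf21, Tnfrsf23 and Tnfrsf25 the smallest p that the design allows, 0.00794 (adjusted over all genes to 0.0809), beside 9.82% of all genes under an adjusted exact p of 0.1. Tnfrsf1b, at 12.0, 11.8, 11.4 and 8.9 TPM in control and 13.1, 12.7, 14.6, 13.7 and 15.0 TPM in CtslΔTEC mice, missed the threshold of the fit across genes (log2 fold change 0.26 ± 0.09, edgeR adjusted p = 0.102).

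Other features moved with genotype in the same libraries. With Ddx3y above 1 TPM in all CtslΔTEC mice and 1 of 4 controls, a fit with Y-linked expression as a term left 2 of the 11 calls, Lta (0.92, edgeR adjusted p = 0.0266) and Tnfrsf25 (-0.67, edgeR adjusted p = 0.0592), and 422 genes in all. In that fit Tnfsf8 was at 0.85, Cd40lg at -0.46, Fasl at -0.67, Tnfrsf21 at -1.39, Tnfrsf1a at 0.17, Traf3 at -0.25 and Traf5 at -0.24. Tnfrsf19 went from -1.04 to -0.73 and Tnfrsf23 from -0.67 to -0.41. Standard errors grew, for example from 0.18 to 0.33 for Tnfsf8 and from 0.09 to 0.15 for Cd40lg. Y-linked expression and genotype largely coincide in these mice, so that this fit separates them poorly. Of the markers of double-positive thymocytes, Rag1, Rag2, Dntt, Ptcra and Cd1d1 summed to 126 to 173 TPM in CtslΔTEC and 63.6 to 84.1 TPM in control cells, 3 of 4 tested being higher and none lower, and Cd8b1 was at 126 to 168 against 28.5 to 38.1 TPM. Of the 5 genes of the sorting gate, Cd8a, Cd8b1, B2m (0.34, edgeR adjusted p = 0.0243) and H2-K1 (0.35, edgeR adjusted p = 0.0467) were higher, their sum with Cd69 being 3547 to 4025 against 2553 to 2885 TPM, and of the 5 CD4 T cell markers Cd5 was lower (-1.07, edgeR adjusted p = 7.55e-05). Among the myeloid markers Csf1r (1.30) and Flt3 (1.10) were higher and Itgam (-0.77) lower, and the stromal Col1a1 (-0.88) was lower. The 5 regulatory T cell markers summed to 10.2 to 15.0 TPM in CtslΔTEC and 4.30 to 7.94 TPM in control cells. Il2ra and Ctla4 were higher and Ikzf2 lower, with Foxp3 at 0.649 to 0.961 against 0.786 to 0.834 TPM. The thymic epithelial markers summed to 2.37 to 3.92 against 1.68 to 2.29 TPM, Epcam being higher and Psmb11, the other one tested, at 0.383 to 0.499 against 0.373 to 0.468 TPM. The part of these transcripts in the differences of the TNF family was not tested.

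**Figure D4:**
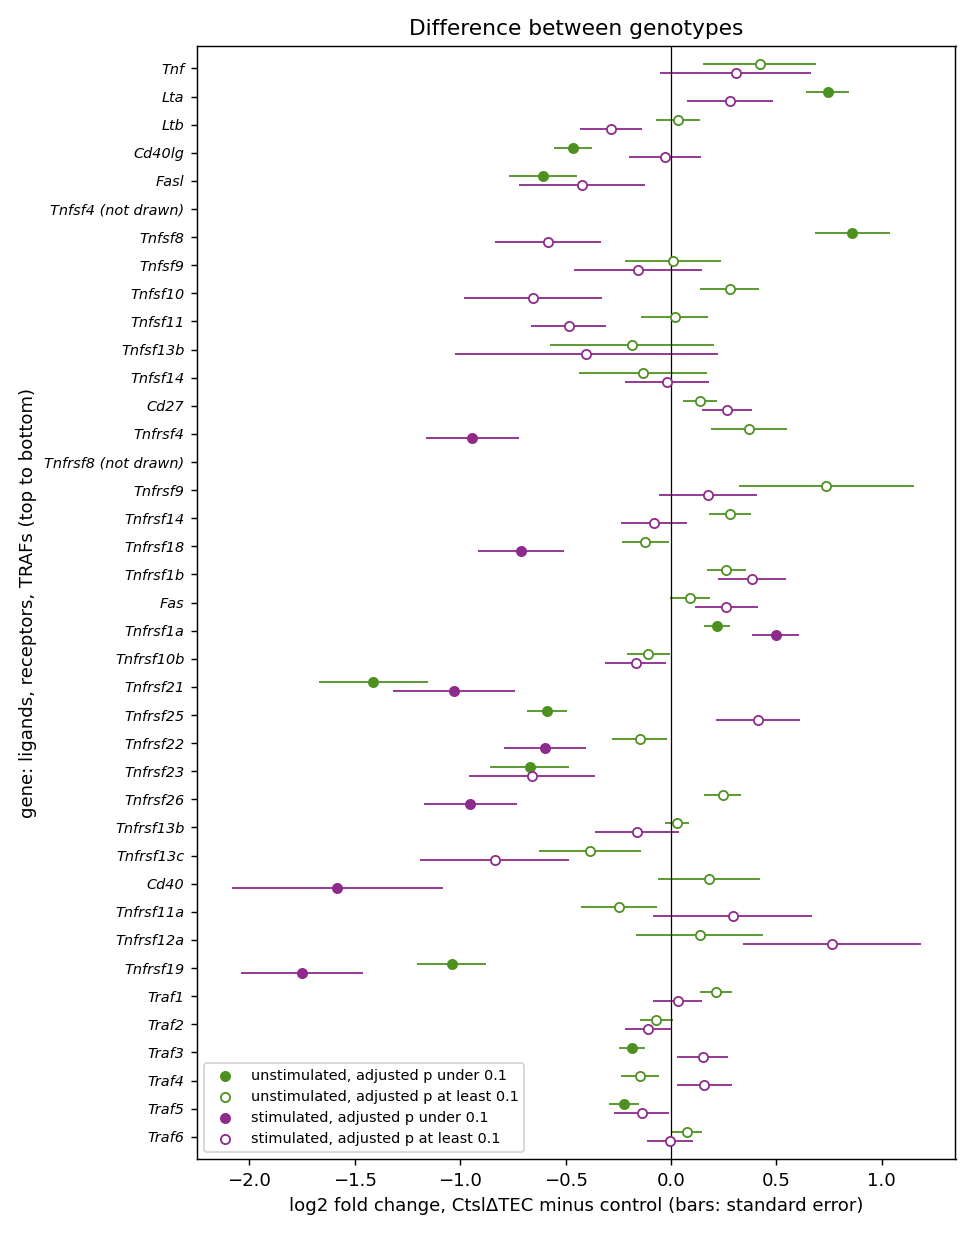
Log2 fold change (x axis, CtslΔTEC minus control) of the members (y axis) in unstimulated (green) and stimulated (purple) cells. Bars are standard errors and filled points passed adjusted p 0.1. Tnfsf4 and Tnfrsf8, scarce and not called, are left out. Tnfrsf19 and Tnfrsf21 were lower and Tnfrsf1a higher in both states.

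After stimulation, with 2 mice a group, 8 of 39 members differed between genotypes, 1 higher and 7 lower in CtslΔTEC cells, all of them receptors, beside 2.77% and 10.6% of all 14241 genes. This balance rests on control mouse 6, without which 6 were higher and 6 lower, among them the ligand Lta (0.82, edgeR adjusted p = 0.00399, against 0.28 with all libraries) and Traf3 (0.36, edgeR adjusted p = 0.0702). The median log2 fold change of the members was -0.16, beside -0.05 for all genes. Of the costimulatory receptors, Tnfrsf4 and Tnfrsf18 were lower. Tnfrsf4 (OX40) was at 87.5 and 85.8 TPM in control mice 5 and 6 and 38.6 and 52.6 TPM in CtslΔTEC mice 6 and 7, a log2 fold change of -0.94 ± 0.22 (edgeR adjusted p = 0.0146). Tnfrsf18 (GITR), whose gene lies 9.55 kb from that of Tnfrsf4 on chromosome 4, was at 114 and 80.7 TPM in control mice 5 and 6 and 55.6 and 68.2 TPM in CtslΔTEC mice 6 and 7, a difference of -0.71 ± 0.20 (edgeR adjusted p = 0.0417). Before stimulation Tnfrsf18 was at 34.7, 33.8, 34.7 and 44.1 TPM in control and 36.9, 29.9, 38.6, 35.4 and 34.5 TPM in CtslΔTEC cells, with overlap. In both genes, each stimulated control lay above each CtslΔTEC mouse. Foxp3, which defines regulatory T cells that carry OX40 and GITR at a high level, was at 0.125 to 0.514 TPM in stimulated control and 0 to 0.0313 TPM in stimulated CtslΔTEC cells, a difference that was not called (-1.27 ± 1.32, edgeR adjusted p = 0.685). The 5 markers of these cells, mostly Il2ra, summed to 249 to 297 TPM in control and 301 to 314 TPM in CtslΔTEC cells, and among them Ikzf2 and Tigit were lower in CtslΔTEC cells, while Il2ra (0.16) and Ctla4 (0.49) were not called. In the same libraries Cd8a (2.59), Cd8b1 (1.90), B2m (0.44) and H2-K1 (0.43) were higher and Cd1d1 (-0.65) and Pecam1 (-0.52) lower in CtslΔTEC cells, with edgeR adjusted p of at most 0.0843. The part of these transcripts in the lower OX40 and GITR transcripts was not tested.

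Tnfrsf19 was at 3.27 and 2.96 TPM in control mice 5 and 6 and 0.493 and 1.11 TPM in CtslΔTEC mice 6 and 7, a log2 fold change of -1.75 ± 0.29 (edgeR adjusted p = 0.00191), and Tnfrsf21 at 5.59 and 6.34 TPM in control mice 5 and 6 and 2.47 and 3.48 TPM in CtslΔTEC mice 6 and 7, a difference of -1.03 ± 0.29 (edgeR adjusted p = 0.0372). Both had been lower before stimulation too, and Tnfrsf19 fell with stimulation in control (-0.66 ± 0.22, edgeR adjusted p = 0.0184) and CtslΔTEC cells (-1.37 ± 0.25, edgeR adjusted p = 0.000213). With a length offset its fall in control cells was -0.34 and not called. Tnfrsf26 was at 16.6 and 10.5 TPM in control mice 5 and 6 and 5.96 and 7.92 TPM in CtslΔTEC mice 6 and 7 (-0.95 ± 0.22, edgeR adjusted p = 0.0149) and Tnfrsf22 at 18.5 and 16.1 TPM in control mice 5 and 6 and 10.6 and 12.4 TPM in CtslΔTEC mice 6 and 7 (-0.60 ± 0.20, edgeR adjusted p = 0.0736). These genes and Tnfrsf23 form a cluster of related receptors (chr7:143607659-143685872, GRCm38) whose reads may be divided between copies, so that the value of each is uncertain. Before stimulation Tnfrsf22 was at 16.1, 16.6, 11.1 and 10.5 TPM in control and 13.3, 12.7, 14.5, 13.5 and 13.6 TPM in CtslΔTEC cells. Its stimulated difference was -0.55 and not called with upper-quartile factors. Cd40, the receptor of Cd40lg and a marker of B cells and antigen-presenting cells, was at 0.737 and 0.489 TPM in control mice 5 and 6 and 0.232 and 0.152 TPM in CtslΔTEC mice 6 and 7, from 14 and 27 against 6 and 6 estimated counts (-1.58 ± 0.50, edgeR adjusted p = 0.0644). The call was lost with the 4 stimulated libraries alone (-1.52, edgeR adjusted p = 0.188) and with counts thinned to the smallest total (-1.53, edgeR adjusted p = 0.112). The 10 myeloid and dendritic cell markers summed to 3.26 to 9.72 TPM in stimulated control and 1.38 to 2.04 TPM in stimulated CtslΔTEC cells, mostly through Itgax (2.51 to 8.55 against 0.142 to 0.338 TPM), while Cd14 was at 0 in all 4. Itgax alone of the 7 tested was called. Csf1r was at 0.266 to 0.620 TPM in CtslΔTEC against 0.141 to 0.339 TPM in control cells and Xcr1 at 0.202 to 0.381 against 0 to 0.108 TPM, so that the sum follows Itgax and not the list. Cd40 was at 0.727, 0.67, 0.509 and 0.482 TPM in unstimulated control and 0.701, 0.72, 1.03, 0.436 and 0.634 TPM in unstimulated CtslΔTEC cells, with overlap. Whether the myeloid transcripts bear on Cd40 was not tested. Tnfrsf1a was the member that was higher, at 24.6 and 28.5 TPM in control mice 5 and 6 and 38.9 and 40.2 TPM in CtslΔTEC mice 6 and 7 (0.50 ± 0.11, edgeR adjusted p = 0.0115).

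Single libraries weighed on these calls. Without control mouse 5, the shallowest library, 1 member was called, without CtslΔTEC mouse 6, 2 were, and without control mouse 6, the deepest, 12 were, in the directions given before. Only Tnfrsf19 was called with each of the 13 libraries left out in turn. Without control mouse 5 the log2 fold changes were -0.86 for Tnfrsf4, -0.37 for Tnfrsf18, -0.52 for Tnfrsf26, -0.49 for Tnfrsf22, -1.08 for Tnfrsf21, -1.22 for Cd40 and 0.38 for Tnfrsf1a, none of them called. Without CtslΔTEC mouse 6 they were -0.79 for Tnfrsf4, -0.57 for Tnfrsf18, -0.77 for Tnfrsf26, -0.56 for Tnfrsf22, -0.82 for Tnfrsf21 and -1.83 for Cd40, again not called. Cd40 (-1.33) and Tnfrsf22 (-0.64) were also lost without CtslΔTEC mouse 7, Tnfrsf21 (-0.98) without control mouse 6, and Tnfrsf22 without unstimulated CtslΔTEC mouse 2 (-0.55) or 3 (-0.55). A lone mouse left in a group was assumed to vary like those of the other groups.

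**Figure D5:**
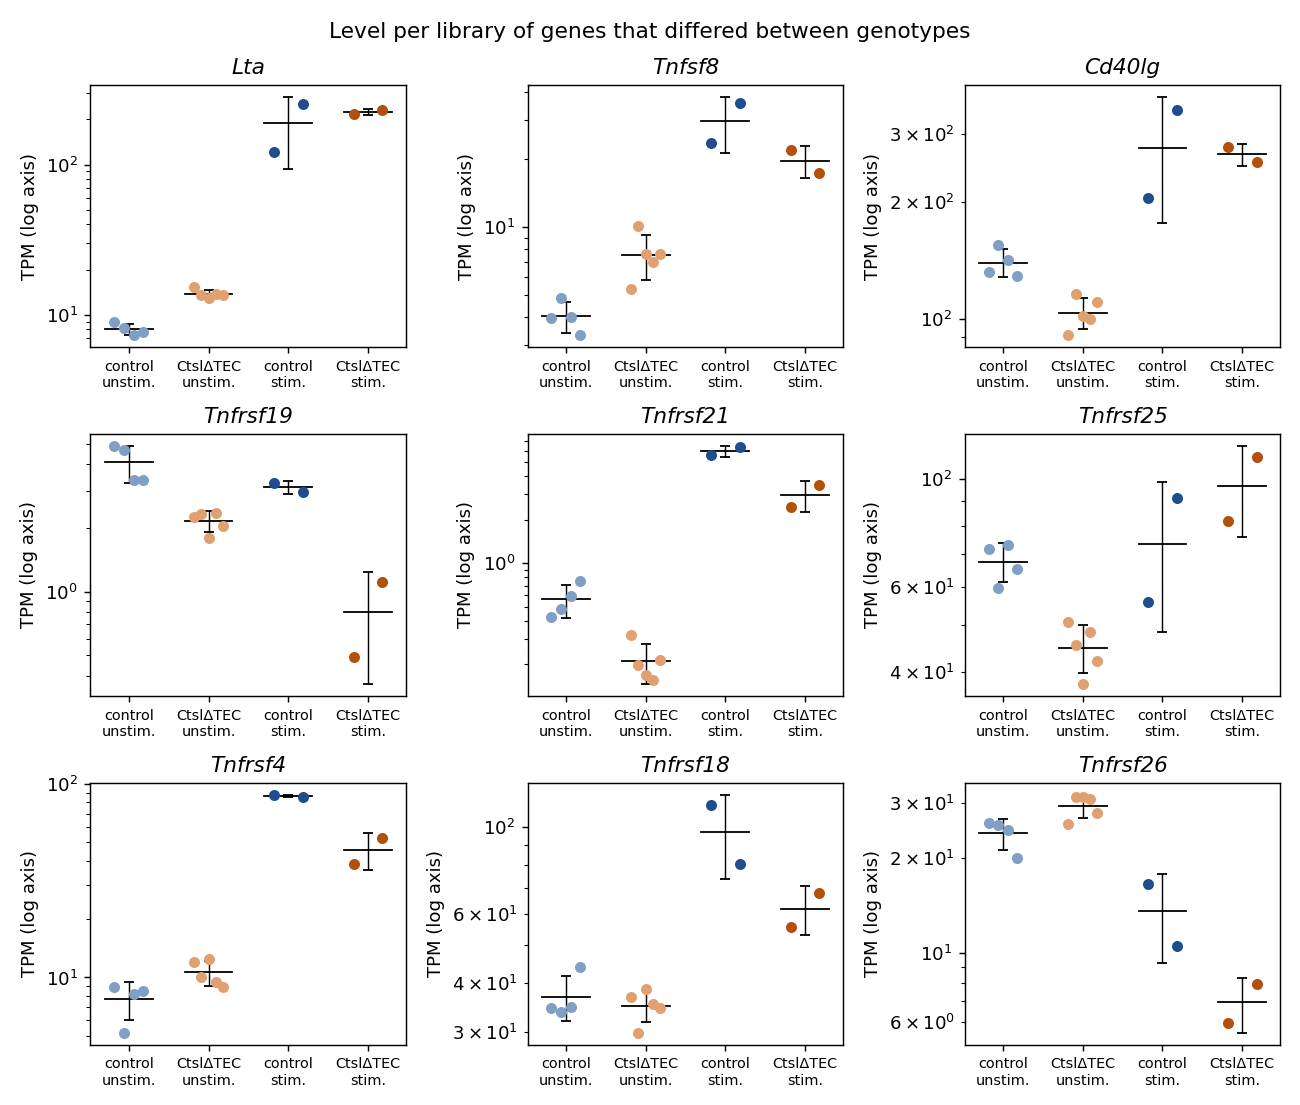
Level (TPM, log axis) of 9 members in each library (points) of the 4 groups (x axis), with mean (line) and SD (bars). Unstimulated Lta and Tnfsf8 were higher and Cd40lg, Tnfrsf19, Tnfrsf21 and Tnfrsf25 lower in CtslΔTEC than in control libraries, and stimulated Tnfrsf4, Tnfrsf18 and Tnfrsf26 were lower.

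The interaction asks whether the response itself differed between genotypes. It passed the threshold for 4 of 39 members, with the log2 fold change higher in CtslΔTEC cells for 1 and lower for 3, beside 1.13% and 4.88% of all genes (6.01% in either direction). Without CtslΔTEC mouse 6, 2 members passed, and without control mouse 6, 9, with 4 higher and 5 lower. Cd40lg (0.77) and Traf3 (0.55) were then among the higher ones. Tnfsf8 rose by 2.98 ± 0.21 in control but by 1.54 ± 0.20 in CtslΔTEC cells, from the higher starting level given before to 23.7 and 35.5 TPM in control mice 5 and 6 and 22.1 and 17.5 TPM in CtslΔTEC mice 6 and 7. The difference of the responses was -1.44 ± 0.31 (edgeR adjusted p = 0.0212), and it was called with each of the 13 libraries left out in turn. Tnfrsf4 rose from 8.93, 5.18, 8.25 and 8.53 TPM in control mice 1 to 4 and 12.1, 10.1, 12.5, 9.51 and 8.9 TPM in CtslΔTEC mice 1 to 5, by 3.68 ± 0.19 and 2.38 ± 0.18, and the responses differed by -1.31 ± 0.27 (edgeR adjusted p = 0.0186). Without CtslΔTEC mouse 6 this was -1.15 and not called.

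Tnfrsf26 fell from 25.9, 25.6, 24.6 and 20.1 TPM in control and 25.8, 31.4, 31.3, 31.0 and 27.9 TPM in CtslΔTEC cells before stimulation, with log2 fold changes of -0.73 ± 0.19 and -1.92 ± 0.20. The responses differed by -1.20 ± 0.26 (edgeR adjusted p = 0.0242), a call lost without control mouse 5 (-0.77) or CtslΔTEC mouse 6 (-1.02). The fall in control cells, in turn, was -0.36 and not called without control mouse 6. Tnfrsf25 was at 55.7 and 91.5 TPM in control mice 5 and 6 and 82.1 and 111 TPM in CtslΔTEC mice 6 and 7 after stimulation. It changed by 0.20 ± 0.17 in control (edgeR adjusted p = 0.331) and rose by 1.20 ± 0.16 in CtslΔTEC cells (edgeR adjusted p = 8.33e-06), a difference of 1.00 ± 0.24 (edgeR adjusted p = 0.0367). That difference was 0.72 without control mouse 5 and 0.72 without CtslΔTEC mouse 7, neither called. For Tnfrsf18 and Tnfrsf19 the difference between responses was -0.59 ± 0.24 and -0.71 ± 0.33 (edgeR adjusted p = 0.241 and 0.307).

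Downstream of the receptors, 51 of 52 listed signalling genes were tested. In control cells 21 rose and 15 fell with stimulation, and in CtslΔTEC cells 22 rose and 20 fell, to be read against the shares of all genes given before. The 4 NF-κB subunit genes Nfkb2, Nfkb1, Relb and Rel had the largest rises of the list. Nfkb2 was at 12.6 to 20.6 TPM before and at 282 to 362 TPM after stimulation (4.62 ± 0.11 in control and 4.47 ± 0.10 in CtslΔTEC cells on the log2 scale). Nfkb1 rose by 3.42 ± 0.10 and 3.78 ± 0.09, Relb by 4.31 ± 0.16 and 4.53 ± 0.15, and Rel by 4.17 ± 0.16 and 4.82 ± 0.15. The fifth, Rela, rose by 1.24 ± 0.10 and 1.16 ± 0.10. Of the falls, Ikbke, an IκB kinase-related gene, had -1.60 ± 0.11 and -2.21 ± 0.12, Traf3ip3 -1.34 ± 0.09 and -1.39 ± 0.09, Traf3ip2 -1.02 ± 0.12 and -1.55 ± 0.12, and Cyld, a deubiquitinase that restrains NF-κB, -1.17 ± 0.11 and -1.27 ± 0.11. The largest edgeR adjusted p among these 9 genes was 2.53e-06.

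Between genotypes, 5 signalling genes were higher and 2 lower in unstimulated CtslΔTEC cells (7 and 1 with library totals). These 7 of 51, the 8 called after stimulation and the 6 interactions stand beside 14.8%, 13.3% and 6.01% of all genes. Without control mouse 5, 1 of 52 signalling genes and 340 of all 15022 genes had an interaction, and with a length offset 3 of 51 and 704 of all 14241. Map3k5 (ASK1) was lower, with a log2 fold change of -0.75 ± 0.11 (edgeR adjusted p = 0.00107), and so was Ripk3, which drives necroptosis, with -0.27 ± 0.09 (edgeR adjusted p = 0.0994). Traip (0.63 ± 0.15), Nfkbie (0.30 ± 0.08), Trafd1 (0.30 ± 0.09) and Nfkb2 (0.30 ± 0.09) were higher (edgeR adjusted p = 0.0196, 0.0418, 0.0494 and 0.0635), as was Birc3. None of the 7 was called with Y-linked expression as a term. After stimulation 4 were higher, Tnip2 (0.53 ± 0.11, edgeR adjusted p = 0.00717), Adam10 (0.52 ± 0.14), Birc3 (0.36 ± 0.10) and Rel (0.57 ± 0.19), and 4 lower, Ikbke (-0.64 ± 0.12, edgeR adjusted p = 0.00501), Nfkbie (-0.59 ± 0.13), Traf3ip2 (-0.59 ± 0.14) and Fadd (-0.53 ± 0.18). With upper-quartile factors these were 6 higher and 3 lower. The interaction was called for 6, 2 higher and 4 lower (3 and 3 with upper-quartile factors). Nfkbie, which encodes the inhibitor IκBε, rose by 1.32 ± 0.11 in control and 0.42 ± 0.11 in CtslΔTEC cells, a difference of -0.90 ± 0.15 (edgeR adjusted p = 0.00769). Tnip2 had 0.57 ± 0.13 (edgeR adjusted p = 0.0308) and Ikbke -0.61 ± 0.15 (edgeR adjusted p = 0.0388), and Map3k5 (0.71 ± 0.21), Fadd (-0.73 ± 0.21) and Traf3ip2 (-0.54 ± 0.16) were the other three. With single libraries left out, 3 (without CtslΔTEC mouse 6) to 13 (9 higher and 4 lower, without control mouse 6) signalling genes were called between stimulated genotypes, and 1 (without control mouse 5) to 9 (5 higher and 4 lower, without control mouse 6) in the interaction.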

How the data were processed

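RNA was sequenced from sorted thymocytes of 13 mice, 1 library a mouse. The authors quantified reads with kallisto (version 0.48, per the labels) against Ensembl transcripts and deposited, for each library, estimated counts (expected counts), TPM and effective lengths for 117497 transcripts. Strand was not used. The labels name polyA RNA and the study's methods rRNA depletion. Here 116397 transcripts were assigned to 35906 genes by GENCODE M21 (GRCm38), at most 0.461% of a library's counts being left without a gene, and estimated counts and TPM were summed per gene. Counts were rounded and tested with edgeR 4.0.16 (R 4.3.3) by glmQLFit and glmQLFTest, TMM factors, filterByExpr and Benjamini-Hochberg adjustment over all genes, at 0.1, the threshold of the study. Unstimulated genotypes were compared over 9 libraries, and the other comparisons in a model of 4 groups over 13 libraries, which share control samples. Fold changes are log2, ± standard error. The exact test used log2 CPM with a prior count of 2. Limits for 0 counts use 3 counts and cover counting error only. The fits were tested on simulated data.

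The members and lists were chosen with earlier results of these data known. Values in every library are given for members called in a genotype comparison or the interaction and for up to 8 in each direction with the largest mean response among those called in both genotypes, and up to 4 signalling genes a direction and comparison are named by smallest p. Alternatives were upper-quartile factors, library totals, DESeq2 1.42.0, other count filters, adjusted p 0.05, a length offset, protein-coding genes only, a Y-linked covariate, file date, mouse number, thinning to the smallest total, and each library left out in turn. Of the cell type markers, 2 genes are not reported here. Promoter sequences come from RefSeq (GRCm38.p6).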

Additional observations from a re-analysis of the deposited data

Results flagged for a closer look

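Within the groups of 4 or 5 unstimulated mice, 74 sets of a member's values were examined for 1 value far from the others, where chance alone gives about 1 in 20, or 3.7, and 3 were found. Tnfrsf18 was highest in control mouse 4, at 5.04 log2 CPM, the other controls lying at 4.57 to 4.60. Tnfrsf9 was highest in CtslΔTEC mouse 2, at 0.29 log2 CPM (39 estimated counts), the others lying at -1.23 to -1.02. Tnfsf9 was highest in CtslΔTEC mouse 3, at 1.29 log2 CPM, the others lying at 0.53 to 0.74.

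The response to stimulation differed between genotypes by the interaction test for Tnfrsf25 (1.00 on the log2 scale), Tnfrsf26 (-1.20), Tnfrsf4 (-1.31) and Tnfsf8 (-1.44). Of these, Tnfsf8 was higher in CtslΔTEC cells before stimulation (0.86), and its stimulated difference of -0.58 did not pass the threshold. Each stimulated group held 2 mice, and the stimulated and unstimulated cells came from different mice.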

How the results depend on the processing

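No call of a member changed direction under the alternatives run. The median of all members between unstimulated genotypes, 0.02, was -0.04 with the second date only and -0.01 without CtslΔTEC mouse 1 or 3, and that of all genes in the control response, 0.01, was -0.08 with library totals and lay below 0 under other settings too. Of 11 members called between unstimulated genotypes, 2 were called with a Y-linked covariate and 7 with mouse number as a replicate block. Deviations of same-numbered unstimulated mice correlated at -0.16, 0.35, -0.10 and -0.14. Only the mice numbered 2 share a date in the file names, so that these values cannot tell whether the numbers pair the samples. Stimulated genotypes share 1 number, so that no block could be fitted there. Of the signalling genes, 7 were called between unstimulated genotypes, and 4 at adjusted p 0.05, 3 with a length offset, 1 with the replicate block and 0 with a Y-linked covariate (edgeR; 3 had an unadjusted p under 0.05 there, and DESeq2, run without that covariate, called 7). Between stimulated genotypes the 8 called became 4 with the 4 stimulated libraries alone, and the 6 interactions became 3 at adjusted p 0.05, 10 by DESeq2 and 3 with a length offset. Summed TPM of the members over protein-coding transcripts only was 1720 (against 2113) in unstimulated CtslΔTEC, 1656 (1987) in unstimulated control and 3788 (4615) in stimulated CtslΔTEC cells. With single libraries left out, member calls ranged from 7 to 13 (unstimulated genotypes), 1 to 12 (stimulated genotypes), 2 to 9 (interaction), 28 to 33 (control response) and 32 to 37 (CtslΔTEC response), and signalling calls, in that order, from 4 to 8, 3 to 13, 1 to 9, 35 to 38 and 37 to 43. The fall of Tnfrsf19 in control cells was -0.34 and not called with a length offset. Scaling to library totals moved the median of all genes in the CtslΔTEC response from -0.06 to -0.21. The cause of these shifts was not tested. Counts limit Cd40, Tnfrsf8 and Tnfsf4, which had at most 57, 41 and 16 estimated counts in any library.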

Other observations

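Several members lie beside each other in the genome (GRCm38), and neighbours moved together in some cases and not in others. Ltb, Tnf and Lta lie within chr17:35194439-35205351, and Tnf and Lta rose in both genotypes with stimulation, whereas Ltb changed by 0.01 in control and -0.30 in CtslΔTEC cells on the log2 scale. On the same chromosome, Tnfsf9, Cd70 and Tnfsf14 lie within chr17:57105325-57194177. Tnfsf9 and Tnfsf14 rose in both genotypes, while Cd70, between them, had 0 counts in every library. On chromosome 4, Tnfrsf1b and Tnfrsf8 lie 20.3 kb apart and both rose in both genotypes, as did Tnfrsf4 and Tnfrsf18. The rise of Tnfrsf8 rests on few counts.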
